A study of Mus musculus with 14 samples.

Results

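The growth hormone, STAT5 and IGF1 axis was followed in mouse liver through 10 genes: the receptors Ghr and Prlr, the kinase Jak2, the transcription factors Stat5a and Stat5b, the feedback and repressor genes Socs2, Cish and Bcl6, and the secreted products Igf1 and Igfals. They were found by matching the RefSeq accession of each array probe to these symbols. The 10 genes, of 19751 genes named in the same way, had 18 probes on the array. Liver RNA came from CD-1 mice, an outbred strain, of both sexes at 3 wk (M3 and F3), 4 wk (M4 and F4) and 8 wk (M8 and F8) of age, and the labels name neither a treatment nor a genetic change in any group. Each group was represented by 2 pools, of 5 mice each at 3 wk and of 6 mice each at 4 and 8 wk, so differences between single mice were averaged out before measurement. The pools were compared in 7 sets of hybridizations, each with 2 two-colour arrays that carried separate pools and exchanged dyes: males against females at each age (M3/F3, M4/F4 and M8/F8), and 8 wk against each younger age, in males (M8/M3 and M8/M4) and in females (F8/F3 and F8/F4). Ratios are given as log2, male over female or 8 wk over the younger age. On the 14 arrays, 55.2% to 77.2% of the 43020 spots per array that were not controls were well above background in a given channel, and no spot was saturated. All 18 probes of the axis were well above background in all 28 channels, with no exception. All 6 measured genes of a fixed hepatocyte list (Alb, Ttr, Apoa1, Apob, Fga and Cps1) were likewise well above background in all 28 channels.

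Growth hormone from the pituitary binds its receptor on hepatocytes and activates the kinase JAK2, which phosphorylates STAT5. STAT5 then enters the nucleus, binds DNA and switches on genes that include Igf1, Igfals, Socs2 and Cish. The proteins made from Socs2 and Cish act back on the receptor complex and damp the signal, while BCL6 is a repressor that binds many of the same DNA sites as STAT5 and whose own gene is repressed by growth hormone. In adult male mice growth hormone is secreted in pulses and in females more continuously, and this difference in timing is a known regulator of sex differences in liver gene expression.

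The first question was which axis genes differed between the sexes or with age. Prlr, Igfals and Ghr were the genes called in at least 1 comparison, that is, with an adjusted p below 0.05, a ratio above 1.5 or below 0.667, and at least 1 of both groups well above background on both arrays. These 3 of 10 stand beside 23.2% of 15302 tested genes that were called in at least 1 comparison. In M8/F8, 2 of 10 axis genes were called (Prlr and Igfals, both lower in males), beside 6.42% of all tested genes. In M8/M3, 3 of 10 were called (Prlr and Igfals lower at 8 wk, Ghr higher), beside 17.9% of all tested genes. Prlr alone was called in M4/F4, where 1.59% of tested genes were called, and in M8/M4, where the share was 10.8%. The 10 genes are too few for a statement on the list as a whole, so the description below is of single genes.

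No axis gene was called in M3/F3 (0.517% of tested genes), F8/F3 (11.7%) or F8/F4 (6.02%) by limma. At an unadjusted p below 0.05, limma gave 2 genes in M3/F3, 3 in F8/F3 and 3 in F8/F4, beside 11.8%, 51.8% and 39.4% of all tested genes at that threshold. An error-weighted average of the 2 arrays, which uses the error modelled for each spot and not the spread between arrays, gave 1 gene (Bcl6) in M3/F3, the same 1 in F8/F3 and no gene in F8/F4, beside 1.1%, 12.8% and 7.39% of all tested genes. In the other comparisons it gave 1 gene in M4/F4 (beside 2.37%), 3 in M8/F8 (beside 6.68%), 5 in M8/M3 (beside 18.4%) and 1 in M8/M4 (beside 11.6%). The 10 genes had a median log2 ratio of -0.33 in M8/F8 and -0.30 in M8/M3, against 0.00 and 0.01 over all tested genes. In F8/F3 the median of the 10 genes was 0.08, against 0.02 over all tested genes.

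Many ratios passed the adjusted p but stayed under 1.5-fold. Without the threshold on the ratio, limma gave 6 of 10 axis genes in M8/M3 (Ghr, Prlr, Jak2, Stat5b, Igf1 and Igfals), beside 42% of all tested genes, and 5 in M8/M4 (the same genes without Stat5b), beside 29.6%. It gave 3 in M8/F8 (Prlr, Igf1 and Igfals), beside 21.8%, and 1 in F8/F3 (Jak2), beside 33.7%. In M4/F4 it gave Prlr alone (beside 7.91%), and in M3/F3 and F8/F4 0 genes (beside 2.88% and 21.3%). At an unadjusted p below 0.05, the counts were 1 in M4/F4, 4 in M8/F8, 7 in M8/M3 and 6 in M8/M4, beside 21%, 39.9%, 60% and 47.9% of all tested genes.

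**Figure D1:**
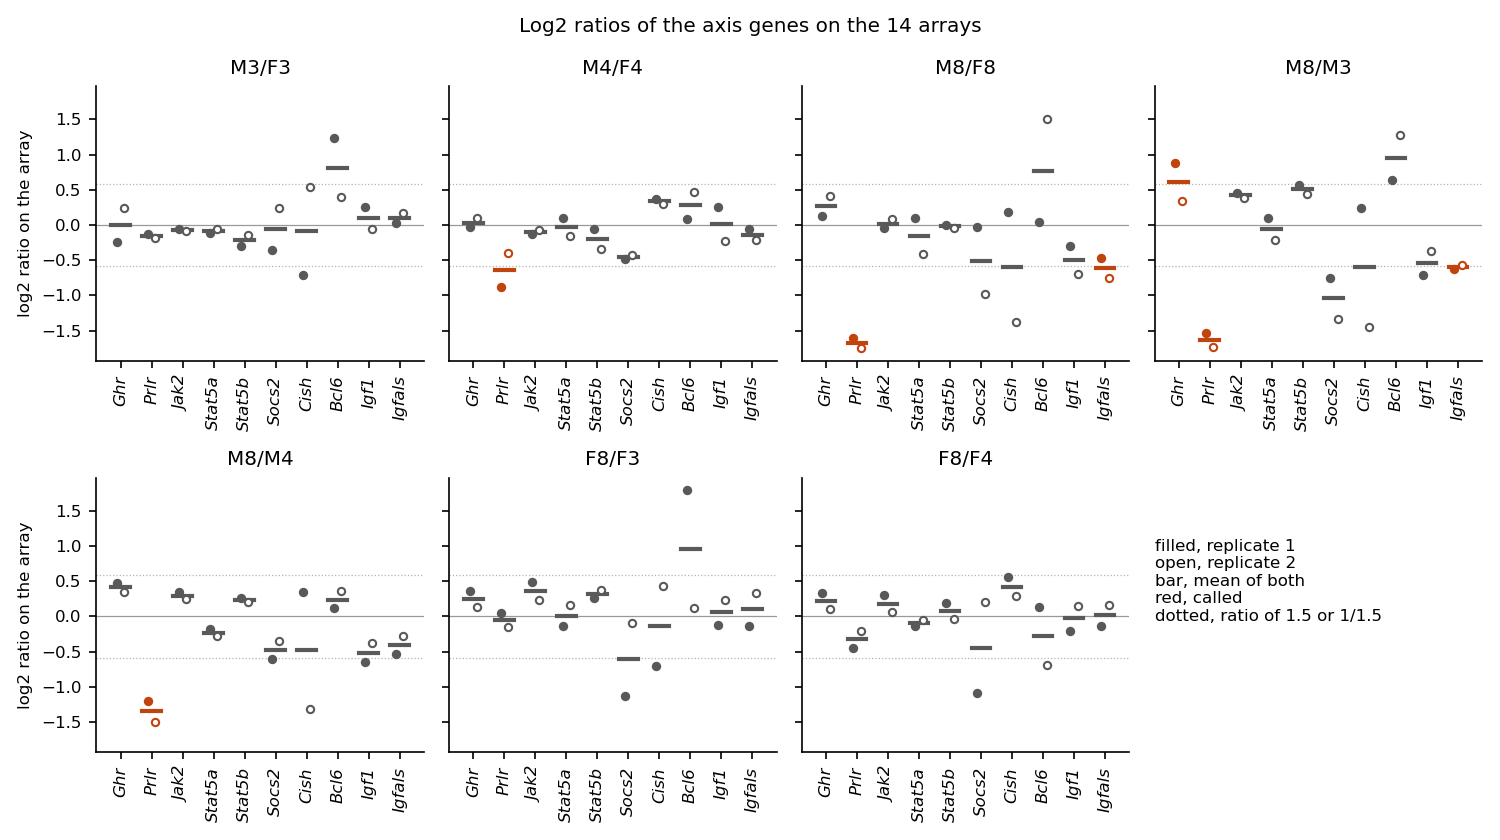
Log2 ratios of the 10 axis genes on each of the 14 arrays, in 7 panels by comparison (y axis, log2 ratio; filled and open points, replicate arrays 1 and 2; bars, their mean; red, called genes; dotted lines, ratios of 1.5 and 1/1.5). Prlr lies at -1.61 and -1.75 on the M8/F8 arrays, whereas the points of Cish, Bcl6 and Socs2 lie far apart in several panels.

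The study describes 2 pools per group that served in the 7 sets of hybridizations, but the labels do not name the pool on each array. Arrays with the same replicate number were taken to carry the same pools, and on that reading a level could be given for each of the 12 pools. Levels are log2 values relative to the mean of the 6 pools with that number, after the dye term of the gene was subtracted. A check of this reading was possible because some differences were measured by separate arrays. For 40 pairs of routes (10 genes, both younger ages, both pool sets), the difference obtained from the age comparisons and that from the sex comparisons differed by a median of 0.03 and at most by 0.15 on the log2 scale. A dye effect cancels in both routes, so this check does not cover it. Differences between pools described below are to be read beside this disagreement, and some are smaller.

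**Figure D2:**
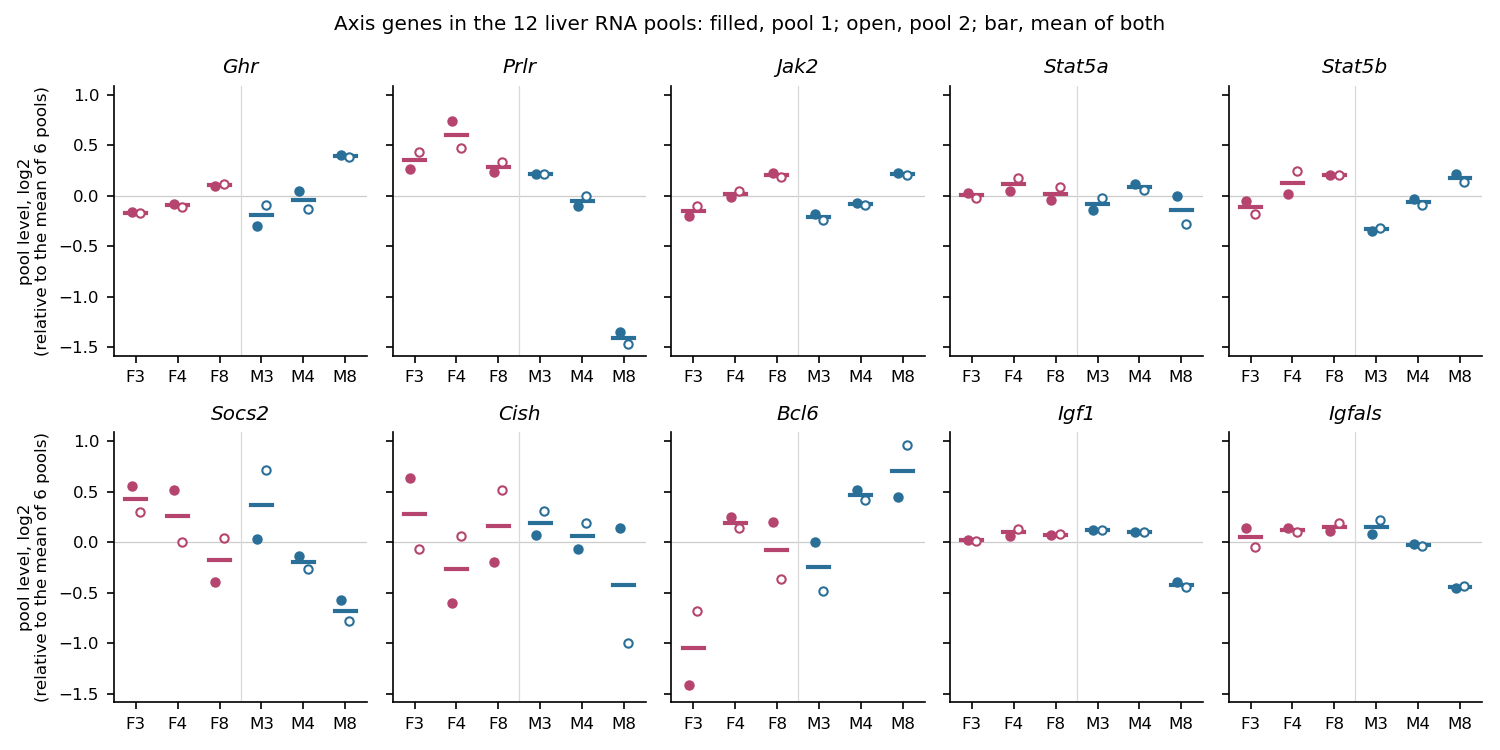
Level of each axis gene in the 12 liver RNA pools (y axis, log2 relative to the mean of the 6 pools with the same number; x axis, group by sex and age in wk; filled points, pool 1; open points, pool 2; bars, mean of both). Prlr, Igf1 and Igfals are lowest in both M8 pools, and the 2 pools of a group lie far apart for Cish, Bcl6 and Socs2.

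Prlr encodes the prolactin receptor, which is related to the growth hormone receptor and also acts through JAK2 and STAT5. It showed the widest spread of group means among the 10 genes, with an SD between group means of 0.72. Its pool levels were 0.27 and 0.44 in F3, 0.73 and 0.47 in F4, and 0.23 and 0.34 in F8. In males they were 0.21 and 0.21 in M3, -0.10 and 0.00 in M4, and -1.35 and -1.46 in M8. Both M8 pools were thus far below the other 10, while M3 lay just under F3 and both M4 pools lay below every female pool. On the arrays, M8/F8 gave -1.61 and -1.75, a fitted ratio of 0.312, or 3.21-fold lower in males (SE of log2 0.12, limma adjusted p = 0.000439). M8/M3 gave -1.53 and -1.74 (fitted log2 -1.63, adjusted p = 0.000489 by limma) and M8/M4 gave -1.20 and -1.5 (fitted log2 -1.35, adjusted p = 0.000954 by limma). In M4/F4 the arrays gave -0.88 and -0.40, a fitted log2 ratio of -0.64 (limma adjusted p = 0.0157). This M4/F4 call was lost without the first of the 2 arrays, when the log2 ratio was -0.42, and with adjustment within each comparison, when the adjusted p was 0.0761 by limma.

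A second Prlr probe gave the same picture at 8 wk, with a fitted log2 ratio of -1.61 in M8/F8 (SE 0.03, limma adjusted p = 4.02e-05). It also showed -1.23 in M8/M3 and -1.10 in M8/M4, both called. The probes differed in female liver: in F8/F3 the brighter probe gave -0.05 (limma adjusted p = 0.985) and the second 0.48 (adjusted p = 0.000358 by limma, 1.40-fold, under the 1.5-fold threshold). They also differed in M4/F4, where the second probe gave -0.33 and was not called. In M3/F3 they differed in sign, with -0.15 for the brighter probe and 0.07 for the second, and neither was called. Whether the probes detect different Prlr transcripts was not tested. Over the 14 ratios, a gene much like Prlr among 3540 other genes called in at least 1 comparison was Sdc1, which encodes the proteoglycan syndecan 1 (Pearson r = 0.985). These ratios share pools, so r values are descriptive.

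Ghr encodes the growth hormone receptor. It had its highest levels at 8 wk in both sexes and the highest of all in M8. Its pool levels were -0.16 and -0.17 in F3, -0.08 and -0.11 in F4, and 0.09 and 0.12 in F8. They were -0.30 and -0.09 in M3, 0.04 and -0.13 in M4, and 0.40 and 0.38 in M8, so that the M8 pools did not overlap with any other group, while the 2 M3 pools lay on either side of both F3 pools. M8/M3 gave 0.88 and 0.35 on the arrays, a fitted rise of 1.53-fold (log2 0.61, SE 0.08, limma adjusted p = 0.00324). Without the first of these arrays the fitted log2 ratio was 0.47 and Ghr was no longer called, and in the fit on 6 group means it was 0.58, just under the fold threshold. M8/M4 gave a log2 ratio of 0.42 (limma adjusted p = 0.0142) and stayed under the fold threshold. In females the log2 ratio was 0.25 in F8/F3 (limma adjusted p = 0.0905) and 0.22 in F8/F4 (adjusted p = 0.124 by limma). The M8/F8 ratio of 0.27 did not pass the test (limma adjusted p = 0.0639). The second Ghr probe gave 0.63 in M8/M3 and was called there, and 0.39 in F8/F3 (adjusted p = 0.0188 by limma), under the fold threshold. Over the 14 ratios, the genes most like Ghr were Spry4, which encodes a Sprouty inhibitor of growth factor signalling (r = 0.953), and Acyp1, which encodes an acylphosphatase (r = 0.942).

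Jak2, the kinase bound to both receptors, had higher values at 8 wk in both sexes, but by less than 1.5-fold. Its pool levels ran from -0.24 in the second M3 pool to 0.23 in the first F8 pool, and the 4 pools at 8 wk (0.18 to 0.23) lay above the other 8, whose highest value was 0.05. M8/M3 gave 0.46 and 0.38 on the arrays (fitted ratio 1.34, limma adjusted p = 0.00267). F8/F3 gave 0.49 and 0.23 (fitted ratio 1.29, limma adjusted p = 0.00468) and M8/M4 gave 0.35 and 0.24 (fitted ratio 1.23, adjusted p = 0.00991 by limma). Males and females had close values at every age, the sex ratios being -0.07, -0.10 and 0.02 on the log2 scale at 3, 4 and 8 wk, each with an SE of 0.05. F8/F4 gave 0.18 (limma adjusted p = 0.0594).

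Stat5b encodes the main STAT5 protein of the growth hormone response in liver, and Stat5a encodes its close relative. For Stat5b, the 2 M3 pools were the lowest at -0.35 and -0.32, and the 8 wk pools were at 0.20 and 0.20 in F8 and at 0.22 and 0.14 in M8. M8/M3 gave 0.57 and 0.45 on the arrays, a fitted ratio of 1.42 (limma adjusted p = 0.00972), under the fold threshold. The F8/F3 log2 ratio of 0.32 did not pass (limma adjusted p = 0.054), although the second Stat5b probe gave 0.41 there (adjusted p = 0.0243 by limma). The M8/F8 ratio was -0.02 with an SE of 0.09, so the adult sexes differed by less than the error. Stat5a levels stayed between -0.28 and 0.18 in the 12 pools. The SD between its group means, 0.10, was no larger than that between pools of a group, 0.10. None of the 7 ratios of Stat5a passed the test; its largest, -0.23 in M8/M4, had an adjusted p of 0.35 by limma.

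Socs2, Cish and Bcl6 behaved in another way. None was called in any comparison by limma on the arrays, although several mean ratios were larger than that of Ghr. A fit on the 6 group means called Socs2 in M8/M3, and error-weighted averages called Socs2 in M8/M3 and Bcl6 in M3/F3, M8/F8, M8/M3 and F8/F3. The SD between pools of a group exceeded the SD between group means for Cish (0.49 against 0.28) and was the smaller one for Socs2 (0.30 against 0.43) and Bcl6 (0.34 against 0.62). The residual SD of the log2 ratios was 0.55 for Socs2, 0.93 for Cish and 0.70 for Bcl6, against a median of 0.13 over 15302 tested genes. Only 4.22%, 0.621% and 1.92% of the tested genes had a larger residual SD than Socs2, Cish and Bcl6. The other 7 axis genes had residual SDs of 0.05 (Igf1) to 0.20 (Stat5a), and 29.8% to 92.6% of tested genes had a larger one. The signals of the 3 genes were well above background on all arrays, with medians of 5114 for Socs2, 4954 for Cish and 5414 for Bcl6 in the scanner's arbitrary units. The time of day at which the mice were killed is not given in the sources used here, and its part in the spread was not tested.

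**Figure D3:**
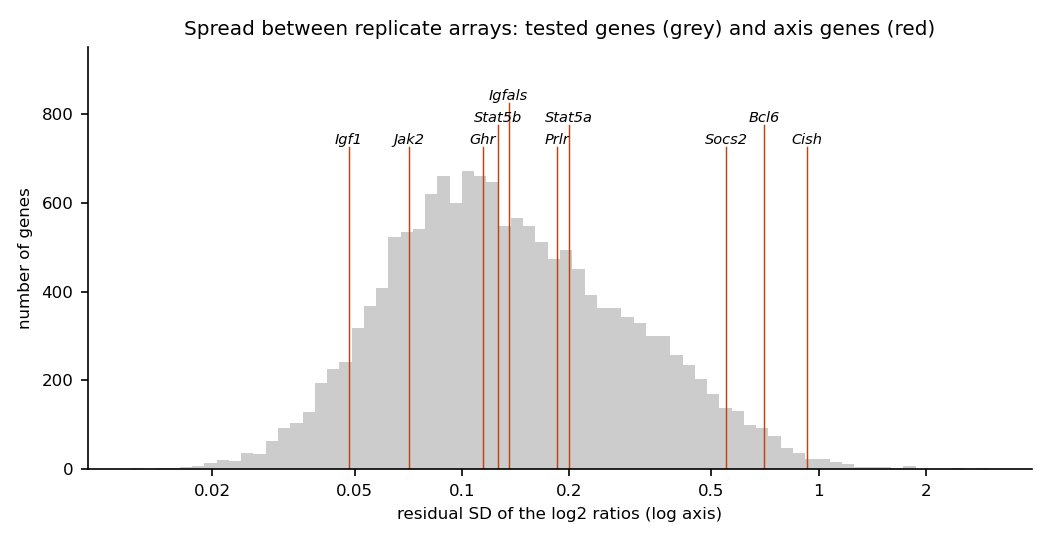
Histogram of the residual SD of the log2 ratios between replicate arrays for 15302 tested genes (x axis, SD on a log axis; y axis, number of genes), with the axis genes as red lines. Socs2, Bcl6 and Cish lie in the upper tail at 0.55, 0.70 and 0.93, and the other 7 genes lie between 0.05 and 0.20.

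Cish encodes a SOCS family protein that is quickly induced by STAT5. Its pool levels were 0.64 and -0.07 in F3, -0.60 and 0.06 in F4, and -0.19 and 0.51 in F8. In males they were 0.07 and 0.31 in M3, -0.06 and 0.19 in M4, and 0.15 and -0.99 in M8. The 2 M8 pools thus lay 1.14 apart on the log2 scale, and the second M8 pool was the lowest of all 12. On the arrays, M8/F8 gave 0.19 and -1.38, M8/M3 gave 0.24 and -1.44, and M8/M4 gave 0.35 and -1.31. Each of these pairs differed in sign, and by the reading above the same 2 M8 pools took part in all 3 comparisons. The fitted M8/F8 log2 ratio of -0.60 had an SE of 0.61 (limma adjusted p = 0.682).

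Bcl6 levels covered the widest range of the 10 genes, 5.2-fold from the lowest pool to the highest. They were -1.41 and -0.68 in F3, 0.25 and 0.14 in F4, and 0.20 and -0.36 in F8. In males they were 0.00 and -0.49 in M3, 0.52 and 0.42 in M4, and 0.45 and 0.96 in M8. Both F3 pools were the lowest of all, and both M8 pools lay above every female pool, while M4 overlapped with M8. M8/F8 gave 0.04 and 1.5 on the arrays (fitted log2 0.77, SE 0.46, limma adjusted p = 0.375), M3/F3 gave 1.23 and 0.39 (fitted 0.81, limma adjusted p = 0.343), and F8/F3 gave 1.80 and 0.13 (fitted 0.96, limma adjusted p = 0.253). All 3 ratios were above 0 on both arrays and none passed the test. Bcl6 is also made by germinal centre B cells. Of 7 B cell markers on a fixed list, 4 were well above background on all arrays and 0 were called in any comparison by limma (0 to 2 per comparison at an unadjusted p below 0.05, beside 11.8% to 60% of all tested genes). The median level of these 4 lay between -0.20 and 0.18 in the 12 pools, and the part of B cells in the Bcl6 levels was not tested.

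Socs2 encodes an inhibitor that limits growth hormone signalling and body growth. Its pool levels were 0.56 and 0.30 in F3, 0.52 and 0.00 in F4, and -0.40 and 0.04 in F8. In males they were 0.03 and 0.71 in M3, -0.13 and -0.26 in M4, and -0.58 and -0.78 in M8. The M8 pools were the lowest of the 12, and in each sex the mean level was lower at 8 wk than at 3 wk. M8/M3 gave -0.75 and -1.34 on the arrays, a fitted log2 ratio of -1.04 (SE 0.36, limma adjusted p = 0.119), lower on both arrays but not past the test. F8/F4 gave -1.08 and 0.20 and F8/F3 gave -1.13 and -0.09, so that the first F8 pool was low and the second was not. All 3 Socs2 probes gave a negative M8/M3 ratio, from -1.13 to -0.98, and none was called.

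The differences between the 2 pools of a group were compared across the 3 genes. For Cish, the second pool minus the first was 0.24 in M3, 0.25 in M4, -1.14 in M8, -0.71 in F3, 0.65 in F4 and 0.71 in F8. For Bcl6, the same differences were -0.49, -0.10, 0.52, 0.73, -0.11 and -0.56. Cish and Bcl6 thus had opposite signs in 6 of 6 groups, although the Bcl6 differences in M4 and F4 were smaller than 0.15, the largest disagreement between routes. In the 4 groups where both genes differed by more than that, the pool with more Cish RNA had less Bcl6 RNA in 4 of 4. Socs2 and Cish had the same sign in 4 of 6 groups, and Socs2 and Bcl6 opposite signs in 4 of 6; above that disagreement the counts were 4 of 5 and 4 of 4. Of the 45 pairs of axis genes, Cish and Bcl6 were singled out after their values were seen. Ghr and Socs2, and Stat5a and Stat5b, had the same sign in 6 of 6 groups, but both genes of the pair differed by more than 0.15 in 1 group and in 0 groups. The 6 differences of a gene sum to 0 by construction, since levels are relative to the mean of each pool set, and 1 dye term was fitted per gene, so these counts are given without a test.

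**Figure D4:**
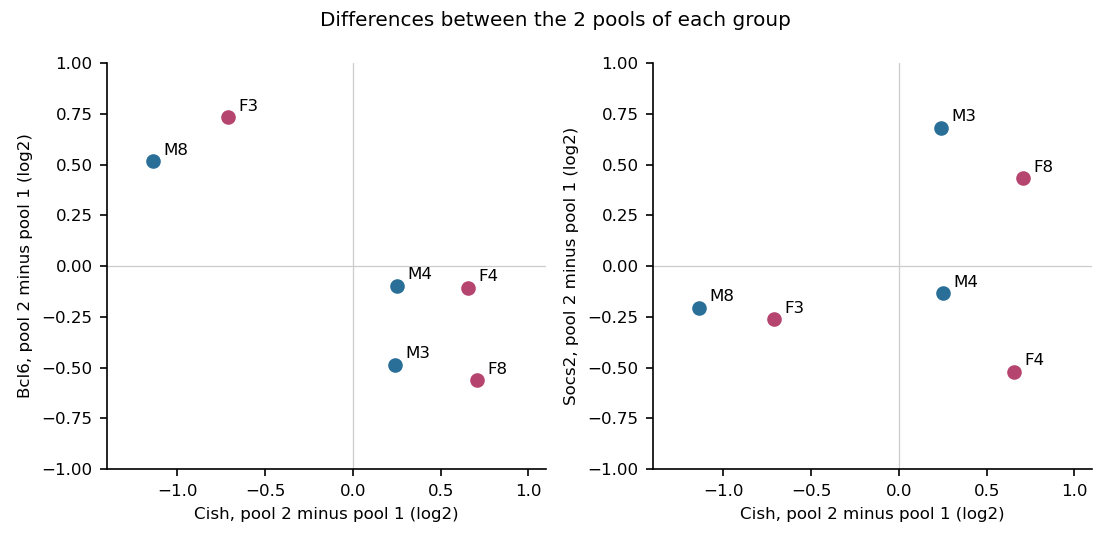
Difference between the second and the first pool of each group (log2) for Bcl6 (left) and Socs2 (right) on the y axes, against Cish on the x axes; each point is 1 of 6 groups. All 6 points of Bcl6 lie in the quadrants where the signs are opposite, and 4 of 6 points of Socs2 lie where the signs agree.

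STAT5 binds DNA at sites of the form TTCNNNGAA, a motif that reads the same on both strands, so searching one strand covers both. The promoter windows of RefSeq (build GRCm38.p6, 250 bases before to 50 bases after a transcript start) were searched for these letters. All axis genes with a window were searched, and every match found is shown. Windows were held for 9 of the 10 genes, all but Socs2. Of their 17 windows 6 held at least 1 match, and these belonged to 4 genes. These 4 of 9 genes (44.4%) stand beside 9.55% of all 27025 genes with a window. Of all 32851 windows, 8.3% held 1 or more matches, 0.457% held 2 or more and 0.0335% held 3 or more. In the lines below the match is in capitals and the flanking bases are in lower case, on the strand of the gene.
Cish (chr9:107296659-107296678, + strand, 2 matches that begin at positions 1 and 12 from the transcript start): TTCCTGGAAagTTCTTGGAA
Bcl6, upstream start (chr16:23988952-23988980, - strand, 118 bases before the start): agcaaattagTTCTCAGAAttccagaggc
Bcl6, downstream start (chr16:23981433-23981461, - strand, 168 bases before the start): aggccgcggcTTCCTGGAAagttacttct
Bcl6, downstream start (chr16:23981387-23981415, - strand, 122 bases before the start): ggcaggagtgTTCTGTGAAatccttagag
Bcl6, downstream start (chr16:23981353-23981381, - strand, 88 bases before the start): atcgactacgTTCCGGGAAtgagagggct
Prlr, the second of 3 listed starts (chr15:10223786-10223814, + strand, 110 bases before the start): gcaaaatgagTTCTAGGAAtaagggatat
Igfals, the first of 3 listed starts (chr17:24877598-24877626, + strand, 236 bases before the start): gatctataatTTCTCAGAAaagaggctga
Igfals, the second of 3 listed starts (chr17:24878163-24878191, + strand, 58 bases before the start): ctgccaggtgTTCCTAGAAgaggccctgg
The Cish window held 2 matches and the downstream Bcl6 window held 3, which few of all windows do. The windows of Ghr, Jak2, Stat5a, Stat5b and Igf1 held no match. Because a window covers only 300 bases around a start, and sites of STAT5 are known far from promoters, the search does not describe the binding of the factor.

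Igf1 encodes the growth factor through which much of the growth effect of the hormone is carried. Its transcript gave the brightest signal of the 10 genes, with a median of 86740, though levels of different probes are not comparable. Its pools agreed closely within groups: 0.03 and 0.01 in F3, 0.07 and 0.13 in F4, 0.07 and 0.08 in F8, 0.12 and 0.12 in M3, and 0.11 and 0.10 in M4. The M8 pools, at -0.39 and -0.45, were the lowest, and the other 10 all lay above 0. M8/F8 gave -0.29 and -0.70 on the arrays (fitted ratio 0.708, SE of log2 0.04, limma adjusted p = 0.000474). M8/M3 gave -0.71 and -0.38 (fitted ratio 0.686, limma adjusted p = 0.000358) and M8/M4 gave -0.65 and -0.38 (fitted ratio 0.7, limma adjusted p = 0.000425). These ratios were 1.41-, 1.46- and 1.43-fold lower in M8, just under the 1.5-fold threshold, so this probe was not called in any of the 3. The agreement of its pools rests on a dye term of 0.18 for this probe: without a dye term the M8/F8 ratio had a limma adjusted p of 0.127. By the reading of shared pools, a dye effect has the same pattern over the arrays as differences between pools in M3, M4 and F8. The design therefore cannot tell a dye effect from such pool differences.

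Igf1 had 4 probes, and all 4 were lower in M8 than in F8, M3 and M4. In M8/F8 they gave -0.50, -0.47, -0.51 and -0.38 in order of brightness. In M8/M3 they gave -0.54, -0.53, -0.84 and -0.66, and the last 2 were called as 1.79- and 1.59-fold lower. In M8/M4 they gave -0.51, -0.54, -1.01 and -0.73, and again the last 2 were called, as 2.01- and 1.66-fold lower. The probes parted in females: in F8/F3 the 2 brighter probes gave 0.06 and 0.08, and the other 2 gave -0.34 (limma adjusted p = 0.00402) and -0.25 (adjusted p = 0.00706 by limma). With the mean of its 4 probes Igf1 was called in M8/M3 (-0.64) and M8/M4 (-0.70). The size of the change in Igf1 RNA, and whether females changed with age, therefore depended on the probe, and which transcripts each probe detects was not tested.

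**Figure D5:**
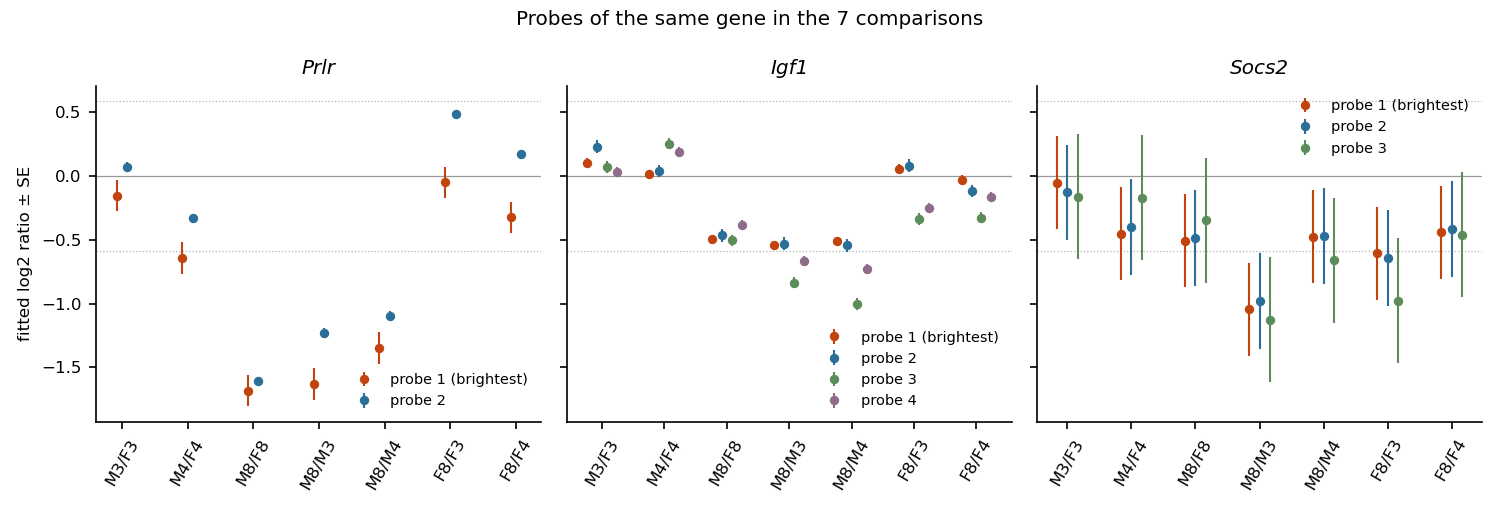
Fitted log2 ratios (y axis, ± SE) of each probe of Prlr, Igf1 and Socs2 in the 7 comparisons (x axis), with the brightest probe in red and dotted lines at ratios of 1.5 and 1/1.5. All probes of Prlr and Igf1 are below 0 in M8/F8, M8/M3 and M8/M4, and probes of the same gene differ in F8/F3 and F8/F4.

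Igfals encodes the acid-labile subunit, which is secreted by hepatocytes and holds IGF1 in the blood in a complex with IGFBP3. Its pool levels were 0.14 and -0.04 in F3, 0.14 and 0.10 in F4, 0.11 and 0.19 in F8, 0.08 and 0.22 in M3, -0.02 and -0.04 in M4, and -0.46 and -0.44 in M8. The 2 M8 pools were again the lowest and close to each other. By the reading of shared pools, the same 2 M8 pools took part in M8/F8, M8/M3 and M8/M4. For Prlr, Igf1 and Igfals these comparisons are therefore not separate replications of a low M8 level. M8/F8 gave -0.47 and -0.75 on the arrays, 1.53-fold lower in males (log2 -0.61, SE 0.09, limma adjusted p = 0.00599). M8/M3 gave -0.63 and -0.56, 1.51-fold lower at 8 wk (limma adjusted p = 0.00665). Both lay just past the fold threshold, and neither was called without the second of its own arrays, when the log2 ratios were -0.57 and -0.52. The M8/M3 call was also lost after normexp correction and loess normalization of the intensities, at -0.56. M8/M4 gave -0.41 (limma adjusted p = 0.0285), under the threshold, and in F8/F3 and F8/F4 the ratios were 0.10 and 0.02. The genes most like Igfals over the 14 ratios were Cyp2c68, a cytochrome P450 gene (r = 0.971), and Hacl1, which encodes a lyase of fatty acid oxidation (r = 0.95).

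Whether males and females changed differently with age was tested as the difference between their age ratios. From 3 to 8 wk, 3 of 10 axis genes were called, beside 3.38% of tested genes, and all 3 differences were below 0, that is, the male ratio was the lower one. The difference was -1.58 on the log2 scale for Prlr (SE 0.17, limma adjusted p = 0.00724), -0.60 for Igf1 (SE 0.05, limma adjusted p = 0.00337) and -0.70 for Igfals (SE 0.13, limma adjusted p = 0.0342). The second Prlr probe gave -1.71, and the 4 Igf1 probes gave -0.60, -0.61, -0.50 and -0.42, each with an adjusted p below 0.05 in limma, the last 2 under the fold threshold. Without the threshold on the ratio the count was again 3 of 10, beside 6.52% of tested genes, at an unadjusted p below 0.05 it was 4, beside 26.3%, and by error-weighted averages it was 1 (Prlr), beside 3.55%. Without a dye term the difference for Igf1 had a limma adjusted p of 0.315, and with the mean of its probes it was -0.53, under the fold threshold. For Igfals the call was lost in 12 of 14 fits that each left out 1 array. From 4 to 8 wk, Prlr was called with -1.02 (limma adjusted p = 0.0463), beside 1.33% of tested genes. Without the threshold on the ratio 2 genes passed (Prlr and Igf1), beside 2.1%, at an unadjusted p below 0.05 there were 3, beside 17.6%, and error-weighted averages gave 1 (Prlr), beside 2.47%. The call of the brighter Prlr probe was lost in all 14 fits that left out an array and with the replicate number as a block, where the adjusted p was 0.0703 by limma. The second Prlr probe gave -1.27 (limma adjusted p = 0.000629). For Ghr, the difference of 0.37 from 3 to 8 wk did not pass the test (limma adjusted p = 0.134), and for Jak2 and Stat5b it was 0.06 and 0.19 (limma adjusted p = 0.797 and 0.488).

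The step from 3 to 4 wk was obtained as the difference of 2 age ratios in each sex. By limma, 0 of 10 axis genes were called in males, beside 0.292% of tested genes, and 0 of 10 in females, beside 0.0931%. Without the threshold on the ratio there were again 0 in both sexes, beside 0.591% and 0.153%. At an unadjusted p below 0.05 there were 0 genes in males and 1 in females (Jak2), beside 17.4% and 14.3% of tested genes, and the error-weighted average gave 0 and 1 (Bcl6), beside 1.12% and 0.991%. The largest estimates were 0.72 for Bcl6 in males (SE 0.66) and 1.24 for Bcl6 in females (SE 0.66). Neither passed the test in limma, although the 2 F3 pools (-1.41 and -0.68) lay below both F4 pools (0.25 and 0.14).

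Around the axis, 70 further genes of the pathway were read from a fixed list. Of these, 15 were called in at least 1 comparison, beside 23.2% of all tested genes. Between the sexes, 3 of 62 tested were called at 3 wk, 4 of 60 tested at 4 wk and 7 of 61 tested at 8 wk, beside 0.517%, 1.59% and 6.42% of all tested genes. In males, 11 of 66 tested were called from 3 to 8 wk (beside 17.9%) and 7 of 64 tested from 4 to 8 wk (beside 10.8%), and in females 8 of 66 tested (beside 11.7%) and 2 of 64 tested (beside 6.02%). All 14 calls in the sex comparisons were lower in males, with Cux2, Trim24, Tox and Igfbp2 counted more than once. Cux2, Trim24 and Tox gave 3 of the 4 calls at 4 wk. The authors had reported these genes as female-specific from the same arrays, so their part in these counts was known beforehand. Over all tested genes, 45 of 69 calls at 3 wk, 127 of 208 at 4 wk and 507 of 868 at 8 wk were lower in males. The median ratio of the tested genes of the list was -0.10 in M8/F8 and 0.02 in M8/M3. Of 19 kinases and adaptors, which carry the signal from the receptor to STAT5, MAP kinase and PI3 kinase, 0 were called by limma in any of the 7 comparisons. At an unadjusted p below 0.05, 1 to 10 of them passed per comparison, beside 11.8% to 60% of all tested genes. Of 17 inhibitors, Lnx1, a ubiquitin ligase gene, was the one called, at -1.07 in M8/F8 and 1.22 in F8/F3.

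Among 19 ligands, IGF receptors and binding proteins, Igfbp2, which encodes a binding protein of IGF1 in blood, was called in 4 comparisons. Its log2 ratio was -1.22 in M3/F3 (limma adjusted p = 8.54e-05), -0.60 in M4/F4, 1.77 in M8/M3 and 0.88 in M8/M4. It was 0.48 in M8/F8, where it was not called. Igfbp3, which encodes the partner of the acid-labile subunit, fell in males, with -1.22 in M8/M3 (limma adjusted p = 0.00671) and -0.89 in M8/M4. In F8/F3 it was -0.66 and was not called. Stc1, which encodes a stanniocalcin that inhibits the protease PAPP-A, fell in males by 0.75 on the log2 scale in M8/M3 and by 0.81 in M8/M4. Igfbp1, a binding protein gene that responds to fasting and insulin, was lower in males at 3 wk (-2.04 in M3/F3, limma adjusted p = 0.0481), and Igfbp7 fell in females (-0.62 in F8/F3). Igf2, the fetal growth factor gene, and Pappa2, a protease gene that frees IGF1 from its binding proteins, fell in males to below background: Igf2 by at least 1.17-fold and Pappa2 by at least 1.12-fold in M8/M3. Pappa2 also fell by at least 1.45-fold in F8/F3. Growth hormone and prolactin themselves are pituitary products: Prl was well above background in 0 of 28 channels, and Gh, a dim probe, in 19 of 28 and was not called.

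Of 15 transcription factors, 7 were called in at least 1 comparison, beside 23.2% of all tested genes. Cux2, Trim24 and Tox, known female-biased regulators in adult liver, were lower in males in M4/F4 and M8/F8. In M8/F8 the log2 ratio was -2.0 for Trim24 (limma adjusted p = 9.55e-05) and -2.78 for Tox (adjusted p = 0.000121 by limma). In M4/F4 it was -1.19 for Trim24 and -1.30 for Tox. The fitted M8/F8 ratio of Cux2 was -4.98, with M8 well above background on 1 of the 2 arrays. After normexp correction its mean log2 levels were 6.88 in M8 and 9.89 in F8, a smaller gap. Cux2 was at least 1.6-fold lower in M8 than in M3. All 3 rose in females in F8/F3, by 2.20 for Cux2, 0.66 for Trim24 and 0.66 for Tox. Esr1, the oestrogen receptor gene, was lower in males at 8 wk (-1.5 in M8/F8, limma adjusted p = 0.00117) and fell in males (-1.25 in M8/M3). Nr1i3, the gene of the nuclear receptor CAR, was lower in males in M8/F8 (-0.62) and rose in F8/F3 (0.82), and Cebpb, a liver factor gene, rose in males (1.12 in M8/M3) and was lower in males in M3/F3 (-0.60).

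Markers of other liver cells moved in some of the same comparisons. These were whole-liver pools, in which fewer cells of a type and less RNA per cell cannot be told apart. Of 7 Kupffer cell markers, the resident macrophages of the liver, 4 were called lower in males in M8/F8 (beside 6.42% of all tested genes), and all 7 ratios lay between -1.05 and -0.54. Their median level was -0.39 and -0.60 in the 2 M8 pools and -0.14 to 0.39 in the other 10. The median levels of some other lists were lowest in both M8 pools too. They were -0.47 and -0.36 for T cells (-0.07 to 0.24 in the other 10) and -0.36 and -0.39 for stellate cells (-0.20 to 0.27). For sinusoidal endothelial cells they were -0.11 and -0.12 (-0.03 to 0.11). The one T cell marker higher in both M8/M3 and M8/F8 was Cd3e (0.43 and 0.20). Both F8 pools were lowest for bile duct (-0.34 and -0.31) and erythroid cells (-0.66 and -0.66). For B cells and hepatocytes the M8 pools were not both lowest. In M8/M3, 2 of 7 Kupffer cell, 2 of 7 T cell, 3 of 7 stellate cell, 2 of 6 bile duct and 1 of 7 sinusoidal endothelial markers were called, all lower at 8 wk, beside 17.9% of all tested genes called in either direction. With lists this short, these M8/M3 counts lie too near that share to be read as a change of a cell type. The M8 pools were also the lowest for Prlr, Igf1 and Igfals, and the part of these cell types in those results was not tested. Of 6 measured erythroid markers, 4 were called lower in each of the 4 age comparisons, beside 17.9% and 10.8% of all tested genes called in either direction from 3 and from 4 wk in males, and 11.7% and 6.02% in females. Klf1, an erythroid transcription factor gene, was not called, with 0.70 in F8/F3 and -0.15 in M8/M3. Alas2, which encodes the first enzyme of haem synthesis in erythroid cells, rose in males instead (1.37 in M8/M3 and 0.98 in M8/M4) and was higher in males in M4/F4 (0.78) and M8/F8 (1.89), where the median erythroid ratio was -0.03. In M8/F8, 1 of 6 tested T cell markers was called (lower in males), and 0 of 6 stellate cell, 0 of 6 bile duct and 0 of 7 sinusoidal endothelial markers were called by limma (3, 2 and 1 at an unadjusted p below 0.05, beside 39.9% of all tested genes). The hepatocyte list gave 0 calls by limma in M8/F8 (4 of 6 at that unadjusted threshold) and 1 (lower) in each of M8/M3 and M8/M4, with a median ratio of -0.25 in M8/F8 and ratios between -0.57 and 0.40. The called gene was Alb, which encodes serum albumin, at -0.71 in M8/M3 (limma adjusted p = 0.00553) and -0.68 in M8/M4, with -0.57 in M8/F8 (adjusted p = 0.013 by limma, under the fold threshold). Igf1 and Igfals gave -0.54 and -0.60 in M8/M3, and the part of a change shared with Alb in those results was not tested.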

How the data were processed

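Each of the 14 arrays (Agilent Mouse Gene Expression 4x44k v2) carried liver RNA of 2 pools labelled with a red and a green dye. The authors deposited scanner output of Agilent Feature Extraction 10.7.1.1, with the red and green intensity of each spot after background subtraction and dye normalization within the array, and the log10 ratio of red over green with its modelled log10 error. The deposited series table holds the same log10 ratios, with a largest difference of 0. Here the deposited log10 ratios were converted to log2 and turned by the dye labels. These labels give the reverse dye to the methods text for the first replicate. Xist was lower in males in 6 of 6 sex-comparison arrays (log2 -6.67 to -5.1) and Ddx3y was higher in 6 of 6. Spots of a probe were averaged, after leaving out 0 to 10 non-uniform spots per array, giving 39429 probes, of which 26055 had a gene by RefSeq accession. A gene was read from its probe with the highest mean signal.

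Tests used limma 3.58.1 in R 4.3.3, with 7 comparison coefficients and 1 dye term per probe (6 residual degrees of freedom), and Benjamini-Hochberg adjustment over all probes and 7 comparisons together, or over all probes for each sex by age or 3 to 4 wk contrast. Where a group was below background on both arrays, the fold is a bound, computed after normexp correction of the deposited median intensities (offset 50) and loess and Aquantile normalization. Pool levels were solved by least squares from the 7 ratios of each replicate number. Arrays with the same replicate number were taken to share pools, which the labels do not state for each array, and by this reading the 2 pools of an array carry the same number, so each ratio is itself paired. The p-values measure the spread between 2 pools, and the litters of the mice are not given in the sources used here. The main fit took the arrays as independent, although by this reading each pool served on more than 1 array. The same pool differences then enter several arrays, and the 6 residual degrees of freedom overstate the independent information. Precision is limited by having 2 arrays for a comparison.

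The 10 genes, the 70 pathway genes and the 8 marker lists were chosen with earlier results of these data known. Named were all axis genes, pathway genes called in at least 1 comparison (with Gh and Prl), and for each called axis gene the 2 most similar genes; 2 genes that this rule names are not reported here. The fit was tested on simulated data. The alternatives covered the dye term, the replicate block, the adjustment, the threshold on the ratio, group means, shared pools, error weights, background correction, the series table, the background filter, the average of probes, slide, scan day, and each array left out. The 4 slides were scanned on 2 days, with the 3 sex comparisons and M8/M3 on the first.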

Additional observations from a re-analysis of the deposited data

Results flagged for a closer look

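A difference between males and females in the change with age was tested for each axis gene, and 5 differences had an adjusted p below 0.05 in limma, with no threshold on the size of the ratio: 3 of 10 genes from 3 to 8 wk, beside 6.52% of all tested genes, and 2 of 10 from 4 to 8 wk, beside 2.1%. From 3 to 8 wk, the male minus female log2 change was -1.58 for Prlr (adjusted p = 0.00724), -0.60 for Igf1 (adjusted p = 0.00337) and -0.70 for Igfals (adjusted p = 0.0342). From 4 to 8 wk it was -1.02 for Prlr (adjusted p = 0.0463) and -0.48 for Igf1 (adjusted p = 0.0125), the last under the 1.5-fold threshold. This Igf1 difference did not keep an adjusted p below 0.05 under every alternative setting. A comparison with 2 arrays was too small for a test of single arrays within it.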

How the results depend on the processing

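The 7 calls of axis genes in the comparisons and the 4 called interactions kept their direction under every alternative that gave a value. The replicate block gave 0 genes in place of 1 for the interaction from 4 to 8 wk, where Prlr was lost, and changed no other count of axis genes. Without a dye term the interactions numbered 1 and 0, from 3 and from 4 wk. With shared pools in the covariance the interaction from 4 wk numbered 0, and read on the sex comparisons 0. With adjustment within each comparison, M4/F4 gave 0. Without a threshold on the ratio, M8/F8 gave 3 (Igf1 was added), M8/M3 6, M8/M4 5 and F8/F3 1. The interaction from 4 wk then gave 2, and the other pathway genes 90 calls in place of 42. Error-weighted averages gave 1 in M3/F3, 3 in M8/F8, 5 in M8/M3 and 1 in F8/F3 (Bcl6 in each). They also gave 1 from 3 to 4 wk in females (Bcl6) and 1 interaction from 3 wk. With the mean of all probes, M4/F4 gave 0, M8/M3 4 (Igf1 was added) and M8/M4 2 (Prlr and Igf1), and the interactions from 3 wk 2 (Prlr and Igfals). The fit on 6 group means kept the count of 3 in M8/M3 with Socs2 in place of Ghr, and normexp and loess gave 2 there, without Igfals. With each scan day fitted alone, M4/F4 gave 0, M8/F8 1, M8/M3 1, M8/M4 0, the interaction from 4 wk 0 and the other pathway genes 21; this fit rests on fewer arrays. Leaving out 1 array gave 0 to 1 genes in M4/F4, 1 to 2 in M8/F8 and 0 in the interaction from 4 wk. In M8/M3, leaving out 1 array moved the log2 ratio of Ghr between 0.47 and 0.76 and that of Igfals between -0.67 and -0.52. The Igfals interaction from 3 wk moved between -0.85 and -0.54. Each of these ranges crossed the 1.5-fold threshold. For contrasts whose arrays lay on both days, a fit within a scan day could not be had. Limiting the fit to probes above background was chosen after seeing the data and moved no count of axis genes. The causes were not tested. For Cish, Bcl6 and Socs2, pools of 5 or 6 mice and 2 pools a group limit what the means can show.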
